A study of Mus musculus with 16 samples.

Results

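The solute carrier genes described here were 177 protein-coding mouse genes whose symbol begins with Slc and a digit. They were chosen from 371 such genes in the count table. Of these, 174 did not exceed 1 CPM (counts scaled to a common library size, here by the total of each sample) in at least 2 samples, 95 of them with a count in some sample and 79 with none. Of the 197 past this limit, 20 well known carriers, mostly of iron, zinc, glucose, lactate and amino acids, were left out by name, which leaves 177 of the 12372 genes tested. The limit on CPM used the level of each gene but no difference between treatments. The set itself was chosen with earlier results of these data known. Slc17a7 (1.04 CPM in its second highest sample) and Slc35g2 (1.08) were the members nearest the limit, and Slc14a1 (0.972) and Slc25a29 (0.846) lay just outside it. Of the members, 160 exceeded 1 CPM in a sample of every group, and 17 had a group that never did. The symbols of 4 members (Slc4a1ap, Slc9a3r1, Slc9a3r2 and Slc7a6os) belong to proteins named after a carrier gene, and they were kept in a class of their own.

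Solute carriers are membrane proteins that move small molecules such as amino acids, sugars, metal ions, nucleosides and vitamins across the plasma membrane and the membranes of mitochondria, Golgi and lysosomes, by facilitated diffusion or coupled to an ion gradient. Families are numbered by sequence relation, and members of a family often, but not always, share a substrate. In macrophages they supply nutrients to an activated cell, empty the products of digestion from the lysosome, and move peptides and metals that bear on responses to microbes.

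RNA was sequenced from bone marrow-derived macrophages of WT Balb/c mice at 8 weeks of age, in 16 samples and 6 groups. Macrophages received DMEM (n = 2), DMEM with the JAK1/2 inhibitor ruxolitinib (DMEM + Rux, n = 3), or medium conditioned by 4T1 mouse mammary tumor cells (CM, n = 3). Others received CM with 0.5 μM ruxolitinib (CM + Rux, n = 3), or CM with the IKK inhibitor IKK-16 at 0.8 μM besides ruxolitinib at 0.5 μM (CM + Rux + IKK-16, n = 3). The last group received CM with 0.5 μM ruxolitinib and has a label of 2 h (CM + Rux 2 h, n = 2). The label of the CM + Rux group gives 4 h, which the study's methods give as the treatment time for RNA, after serum starvation of the cells. What the 2 h refers to and the dose and time of ruxolitinib in DMEM are not given in the sources used here. The labels do not say whether samples of a group came from separate animals or cultures, so p-values measure only the spread between these samples, which may be technical.

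Totals were 18449388 to 46215853 counts per sample. The 8 macrophage markers summed to 40111 to 57130 CPM in every sample, led by Lyz2, and the 6 epithelial markers were each under 1 CPM in every sample, Epcam and the keratins included (sums of 0 to 0.118 CPM in DMEM and 0.732 to 1.45 in CM). All markers of T and NK cells, erythroid cells and mast cells were under 1 CPM, as were 6 of 7 for neutrophils and 3 of 4 for B cells, and fibroblast markers summed to 5.47 to 20.6 CPM over the samples. Of the 4 dendritic cell markers, Zbtb46 alone passed 1 CPM, at 7.95 to 12.3 CPM in CM + Rux 2 h against 1.89 ± 0.166 (SD, n = 3) in CM + Rux, with Flt3 at 0 in both 2 h samples and Xcr1 at no more than 0.0276. Some markers moved with CM against DMEM: S100a8, the neutrophil marker that was tested, was at 0.207 to 0.286 CPM in DMEM and 1.56 to 2.46 in CM, and the B cell marker Cd79b at 1.06 to 1.21 and 0.0814 to 0.178, while of the macrophage markers Cd14 and Itgam rose by 2.68 and 0.99 on the log2 scale and Csf1r fell by 0.61. The part of these in the differences between groups was not tested. In bulk RNA, fewer cells of a type and less RNA per cell cannot be told apart.

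The members spanned a wide range of levels. Averaged over the 6 groups, 10 lay under 1 CPM, 39 at 1 to 10, 92 at 10 to 100 and 36 at 100 CPM or above, with a median of 32.9. Per kilobase of exon, the highest in its class was Slc15a3 for peptides and histidine (284 CPM per kb), Slc6a6 for taurine (151), Slc25a5 for ADP and ATP across the inner mitochondrial membrane (141), Slc39a1 for zinc (123), Slc37a2 for sugar phosphates (60.1), Slc12a4 for potassium and chloride (46.5), Slc44a1 for choline (43.7) and Slc23a2 for ascorbate (30.9). At the other end, the top carboxylate carrier, Slc16a6, reached 5.74 CPM per kb. Between the highest and the lowest group mean, 100 of the members stayed within 2-fold. In DMEM the members together made up 11613 CPM and in CM 14000 CPM, much of the gap being Slc15a3.

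Promoter sequence is shown for 3 members with a motif match on whose pattern across treatments the results below turn: Slc46a3 (lower in CM and not called with IKK-16), Slc43a2 and Slc37a2 (lower in CM, higher with IKK-16). Each is the 250 bases before the RefSeq start in build GRCm38.p6, written 5′ to 3′ on the strand of the gene, with the match in capitals. The windows are chr5:147894816-147895065 (minus strand), chr11:75531444-75531693 (plus strand) and chr9:37255739-37255988 (minus strand).
Slc46a3: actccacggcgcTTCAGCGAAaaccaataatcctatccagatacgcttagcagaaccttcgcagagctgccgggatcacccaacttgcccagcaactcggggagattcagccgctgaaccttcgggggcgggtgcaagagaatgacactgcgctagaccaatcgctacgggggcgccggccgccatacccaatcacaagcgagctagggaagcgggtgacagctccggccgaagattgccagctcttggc
Slc43a2: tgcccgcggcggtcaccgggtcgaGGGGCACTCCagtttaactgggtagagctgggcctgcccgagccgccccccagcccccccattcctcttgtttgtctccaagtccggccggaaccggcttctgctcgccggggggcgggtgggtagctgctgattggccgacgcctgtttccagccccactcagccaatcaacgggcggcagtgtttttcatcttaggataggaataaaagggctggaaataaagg
Slc37a2: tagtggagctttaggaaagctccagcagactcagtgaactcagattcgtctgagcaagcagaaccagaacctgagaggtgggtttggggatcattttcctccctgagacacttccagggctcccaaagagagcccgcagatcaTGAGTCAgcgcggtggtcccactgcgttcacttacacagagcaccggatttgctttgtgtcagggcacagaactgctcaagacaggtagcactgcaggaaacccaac

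The capitals mark a STAT-type GAS match (TTCNNNGAA) at -238 to -230 from the start of Slc46a3, a kappaB match at -226 to -217 of Slc43a2 and an AP-1 match (TGANTCA) at -107 to -101 of Slc37a2. Windows were found for 136 of the members, and both strands were searched. GAS was in 5.88% of the members' windows against 7.18% of all 27025 windows, kappaB in 5.88% against 7.01%, AP-1 in 5.88% against 6.86%, and the interferon-stimulated response element in 1.47% against 3.04%. The E-box CACGTG was in 11.8% against 6.05%. The 27025 windows include genes that were not tested. Where a gene had several windows, the one nearest its 5′ end was taken for members and the first listed for others. Of the 10 windows of members higher with IKK-16, 1 had kappaB, 1 had AP-1 and 0 had GAS. Of the 37 windows of members lower in CM, 2 had kappaB, 4 had AP-1 and 4 had GAS. A match is a run of letters and no evidence of binding, and no link of a motif to a pattern was tested.

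Tumor-conditioned medium was first compared with DMEM. Relative to DMEM, 40 of the members rose in CM (22.6%) and 50 fell (28.2%), by edgeR's quasi-likelihood test at a Benjamini-Hochberg adjusted p under 0.05 and a log2 fold change beyond 0.5. Over all genes tested, 20.9% were called higher and 24.1% lower, so the members' shares lay near the background. Their median log2 fold change was -0.12, against -0.0050 over all genes tested. Samples of both groups did not overlap for 134 members (75.7%), against a background of 74.8%. Among the called members, 10 had one group that never exceeded 1 CPM, and for these the limit on level itself favoured a difference. The scaling of the samples moved the median of all genes by 0.31 on the log2 scale in this comparison: with total counts alone, 23 members were higher and 76 lower, against backgrounds of 12.4% and 37.2%. The changes below are therefore relative to the scaled median.

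**Figure D1:**
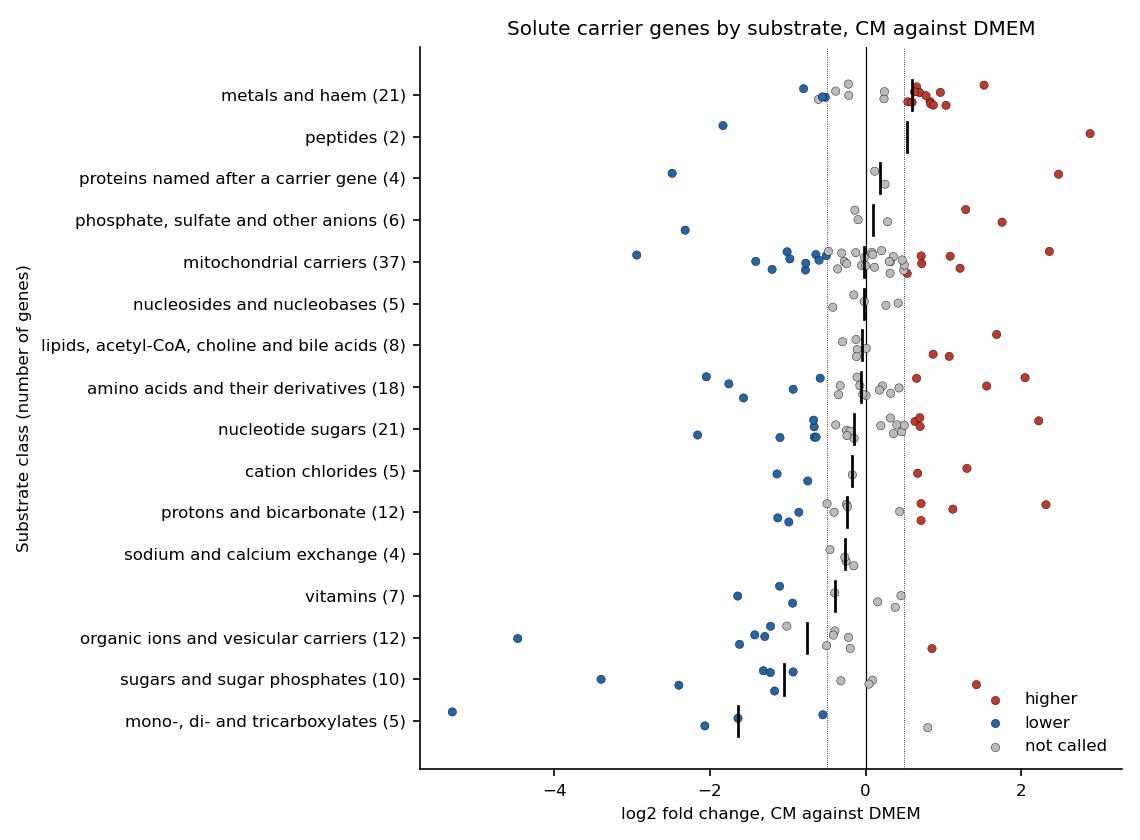
Log2 fold change in CM against DMEM (x axis) of each of the 177 solute carrier genes, by substrate class (y axis, number of genes in parentheses), with the class median as a black bar, genes called higher in red, lower in blue and neither in grey, and dotted lines at a log2 fold change of 0.5 in both directions. Metal and haem carriers lie mostly right of 0 (12 higher, 3 lower), and sugar and carboxylate carriers mostly left of it (1 higher and 6 lower, and 0 higher and 4 lower). Over all genes tested, 20.9% were called higher and 24.1% lower. The carboxylate carriers Slc13a2 and Slc16a12 lay near the limit of 1 CPM. Carriers left out by name, those of glucose and lactate among them, are not shown.

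The classes differed in direction. Of 21 metal and haem carriers, 12 rose and 3 fell, with a median log2 fold change of 0.60; with total counts alone the count was 6 higher and 7 lower and the median 0.29. Of 10 carriers of sugars and sugar phosphates, 1 rose and 6 fell (median -1.05). Of 5 carriers of mono-, di- and tricarboxylates 4 fell and none rose (median -1.64, the value of Slc13a2). Slc13a2 (1.31 CPM in DMEM and 0.405 in CM) and Slc16a12 (1.19 and 0.0284), a creatine transporter, were among these falls. Both lay near the limit of 1 CPM, which itself could favour a difference. Of 12 organic ion and vesicular carriers, 1 rose and 5 fell (median -0.76). Over all genes tested, 20.9% were called higher and 24.1% lower. The carriers left out by name, those of glucose and lactate among them, are in none of these counts. These classes were described by count and were not tested as sets. Under total counts alone the medians of the anion class (0.094 against -0.22) and of the proteins named after a carrier (0.18 against -0.13) changed sign, and those of the other classes kept theirs.

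Peptide carriers held the member with the highest level per kilobase and the largest rise of all members. Slc15a3, which carries histidine and peptides out of endosomes and lysosomes, was at 380 and 306 CPM in DMEM, at 268, 266 and 305 in DMEM + Rux and at 2406, 2772 and 2446 in CM. It stayed at 2268, 2670 and 2369 CPM in CM + Rux and at 2060, 2560 and 2177 in CM + Rux + IKK-16, and both 2 h samples lay between, at 1585 and 1411. Every sample with CM was above every sample without it, and the log2 fold change of CM against DMEM was 2.89 ± 0.14 (SE, adjusted p = 3.1e-09). Its relative Slc15a4, which also sits in the endolysosomal membrane and serves Toll-like receptor signalling there, went the other way, from 138 ± 14.8 CPM (SD, n = 2) in DMEM to 38.7 ± 1.88 (n = 3) in CM (log2 fold change -1.83, adjusted p = 1.6e-07).

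Metal carriers that rose included those of copper, zinc and iron. Slc31a1, the plasma membrane copper importer, was at 145 and 122 CPM in DMEM and at 370, 362 and 420 in CM (log2 fold change 1.52, adjusted p = 1.1e-07). Slc30a7, which loads zinc into the Golgi, rose from 58.9 ± 2.34 CPM (n = 2) to 121 ± 7.93 (n = 3), and the zinc importers Slc39a1 and Slc39a10 rose by 0.84 and 0.96 on the log2 scale. Slc48a1, which moves haem out of the lysosome, fell by 0.80 on the log2 scale, and Slc41a3, of a magnesium carrier family, fell by 0.55. Relatives of these members also went the other way. Slc30a5, of the family of Slc30a7, fell by 0.52, and Slc41a1 and Slc41a2, of the family of Slc41a3, rose by 0.60 and 0.87. Among the mitochondrial carriers, Slc25a37 (mitoferrin-1, which brings iron into mitochondria) was at 59.9 and 40.5 CPM in DMEM and 261, 238 and 279 in CM, without overlap (log2 fold change 2.36, adjusted p = 5e-07).

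Over all 37 mitochondrial carriers, Slc25a37 included, 6 rose and 10 fell, with a median log2 fold change of -0.015. Of all genes tested, 20.9% rose and 24.1% fell. Slc25a30 rose by 1.22 on the log2 scale. Slc25a45 fell by 1.41 and Slc25a27, an uncoupling protein homologue of low level, from 1.37 ± 0.148 CPM (n = 2) to 0.200 ± 0.165 (n = 3). Slc25a3, the phosphate carrier and the largest single part of the class (16.9% of its summed level), was at 293 ± 1.28 CPM in DMEM and 375 ± 15.9 in CM, a log2 fold change of 0.36 (adjusted p = 0.0027) that did not reach 0.5.

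Of the 18 amino acid carriers left in the set, 3 rose and 5 fell, against 20.9% and 24.1% of all genes tested. Slc7a8, an exchanger of neutral amino acids, was at 58.3 and 68.3 CPM in DMEM and at 158, 210 and 191 in CM (log2 fold change 1.56, adjusted p = 1.2e-05). Slc16a10, a uniporter of aromatic amino acids, went from 235 and 180 CPM to 51.0, 37.6 and 62.4 (log2 fold change -2.05, adjusted p = 1.4e-05), and Slc43a2, a uniporter of branched-chain amino acids and methionine, from 553 and 601 to 152, 163 and 197 (log2 fold change -1.76, adjusted p = 3.5e-08). None of these groups overlapped. Slc6a6, the taurine transporter, contributed 41.2% of the summed level of the class and fell from 1460 and 1895 CPM to 834, 1005 and 802. The glutamate transporter Slc1a2 rose by 2.05 on the log2 scale but from 0.417 ± 0.0466 CPM (n = 2) to 1.74 ± 1.12 (n = 3), and its adjusted p was 0.06 without DMEM replicate 1.

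Sugar, carboxylate and lysosomal carriers included the 3 largest falls. Slc46a3, a lysosomal carrier, was at 11.0 and 22.2 CPM in DMEM, at 14.2, 21.4 and 22.4 in DMEM + Rux, and at 0.778, 0.950 and 0.448 in CM. All 9 samples of CM, CM + Rux and CM + Rux + IKK-16 were below 1 CPM, and every sample in DMEM was above 10 (log2 fold change of CM against DMEM -4.47 ± 0.36, adjusted p = 2e-07). Slc5a3, the sodium-coupled importer of the osmolyte myo-inositol, went from 120 and 130 CPM to 15.2, 8.76 and 12 (log2 fold change -3.40, adjusted p = 1.1e-05). Its exons overlap those of Mrps6 on the same strand, so fragments in the shared part could not be assigned to either gene with certainty. In DMEM + Rux it was at 141 and 128 CPM in replicates 1 and 2 but at 37.7 in replicate 3.

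Slc16a7, a monocarboxylate transporter of pyruvate and lactate, was at 39.6 and 54.3 CPM in DMEM and at 9.28, 13.0 and 11.1 in CM (log2 fold change -2.07, adjusted p = 1.9e-07). Slc16a12, a creatine transporter of low level, was at 1.48 and 0.900 CPM in DMEM and at no more than 0.0556 in CM, which with a floor of 3 counts per library makes it at least 7.12-fold lower. Slc37a2, a sugar phosphate exchanger of the endoplasmic reticulum, went from 369 and 548 CPM to 174, 242 and 173. It fell by 1.22 on the log2 scale (adjusted p = 0.00018). Slc45a4 fell by 2.40, and the glucose transporter family members Slc2a8 and Slc2a9 by 1.31 and 1.17. Slc45a3 was the member of the class that rose (log2 fold change 1.43), with an adjusted p of 0.071 without DMEM replicate 1.

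Chloride, phosphate, choline and folate carriers completed the picture. Slc12a4 and Slc12a7, which export potassium with chloride, rose by 1.3 and 0.67 on the log2 scale, while Slc12a2, which imports sodium, potassium and chloride, fell by 1.14. Slc12a7 missed the threshold without CM replicate 2 (adjusted p = 0.10) or DMEM replicate 1 (0.17). Slc20a1, a sodium-phosphate importer, was at 77.7 and 90 CPM in DMEM and at 241, 337 and 271 in CM (log2 fold change 1.76, adjusted p = 5e-05). Slc44a1, a choline transporter, went from 115 and 120 CPM to 382, 364 and 390 (log2 fold change 1.69, adjusted p = 4.3e-09). Of the 3 called vitamin carriers, all lower, Slc46a1 (proton-coupled folate) and Slc19a1 (reduced folate) fell by 1.64 and 1.11 on the log2 scale. Slc26a11, a sulfate and chloride carrier, fell by 2.32, from 17.5 and 31.5 CPM to 4.39, 4.42 and 5.86. Slc9a3r1 (NHERF1, a scaffold protein and no transporter) rose by 2.48.

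Smaller classes and members of low level made up the rest. The class of nucleotide sugar carriers held the 21 members of the Slc35 family, placed there by family, and not all need carry nucleotide sugars. Of these, 4 rose and 6 fell, against 20.9% and 24.1% of all genes tested. Slc35b1 rose by 0.70 and Slc35g2, from 0.200 ± 0.0514 to 0.914 ± 0.665 CPM, by 2.23, while Slc35c2 fell by 2.16 and Slc35g1 by 1.10. Of 12 proton and bicarbonate carriers, 4 rose and 3 fell. Slc4a11 rose by 2.32 and Slc9a5, a sodium-proton exchanger, by 1.12. Slc4a3, a chloride-bicarbonate exchanger, fell by 1.13 and Slc9a7 by 0.99. Slc27a4, a fatty acid carrier, rose by 1.08, Slc26a9 by 1.29 and Slc22a4, which takes up ergothioneine and carnitine, by 0.85, while Slc22a15 fell by 1.62 and Slc9a3r2 by 2.49. Without 1 of the DMEM samples, Slc35g2, Slc4a3, Slc26a9 and Slc22a4 each missed the threshold, at adjusted p of 0.05 to 0.082. None of the 5 nucleoside carriers or the 4 sodium and calcium exchangers were called by edgeR's test, and with total counts alone 1 and 3 of them were called lower.

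**Figure D2:**
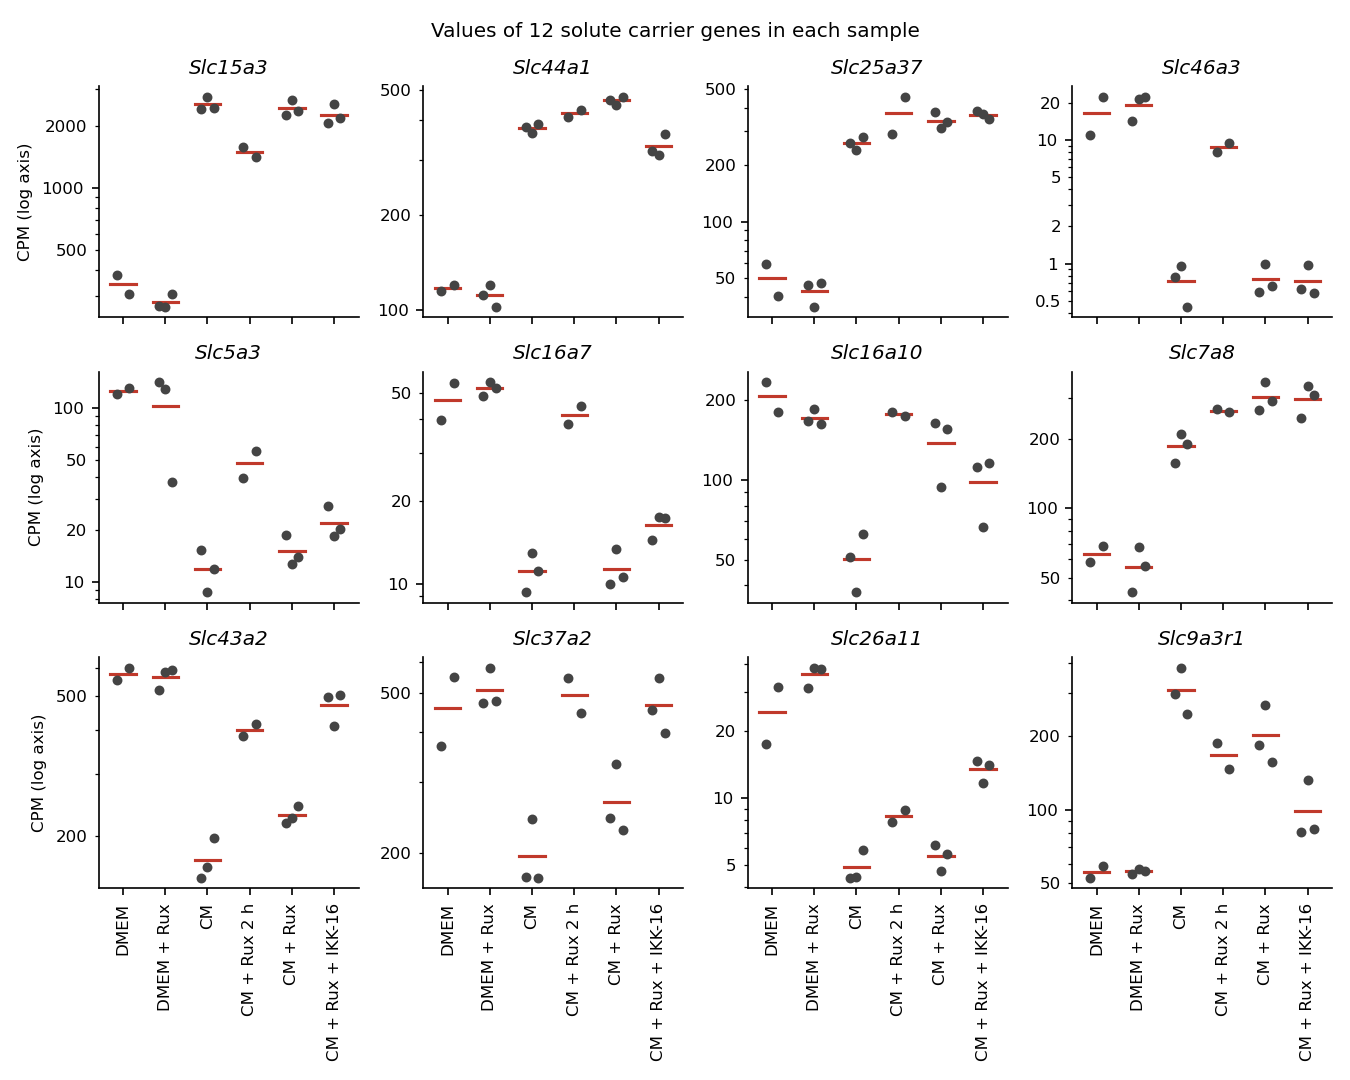
CPM on a log axis (y axis) of 12 solute carrier genes in each of the 16 samples, by treatment (x axis), with each sample as a point and the group mean as a red bar. Slc46a3 is below 1 CPM in the 9 samples of CM, CM + Rux and CM + Rux + IKK-16 and at 8.00 and 9.46 CPM at 2 h, while Slc43a2 and Slc37a2 with IKK-16 lie above every sample of CM and CM + Rux.

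The effect of JAK inhibition in tumor-conditioned medium was small in number. Adding ruxolitinib to CM raised 3 members and lowered 3 (1.69% each way), against 1.20% higher and 2.13% lower over all genes tested. Groups did not overlap for 43 members (24.3%), against a background of 19.2%. The macrophage marker Mertk was lower with ruxolitinib in CM as well (log2 fold change -1.71, adjusted p = 0.0012), and its part in these differences was not tested. Slc16a10, lower in CM than in DMEM, was at 51.0, 37.6 and 62.4 CPM in CM and at 164, 94.2 and 155 in CM + Rux (log2 fold change 1.46 ± 0.24, adjusted p = 0.0026), so that its groups did not overlap. Slc7a8, already higher in CM than in DMEM, rose again, from 158, 210 and 191 CPM to 267, 353 and 292 (log2 fold change 0.71, adjusted p = 0.025). Slc9b2, a sodium-proton exchanger, rose from 5.74 ± 0.333 to 9.84 ± 1.32 CPM (n = 3 each; log2 fold change 0.78, adjusted p = 0.025).

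The 3 members lower with ruxolitinib were a nucleoside, a zinc and a chloride carrier. Slc28a2, a sodium-coupled importer of purine nucleosides, was at 8.78, 8.85 and 5.66 CPM in CM and at 3.40, 4.16 and 2.34 in CM + Rux (log2 fold change -1.20, adjusted p = 0.012). Slc39a10, a zinc importer, went from 103, 153 and 91.1 CPM to 60.3, 81.3 and 54.5 (log2 fold change -0.82, adjusted p = 0.031), and Slc12a7 from 77.8, 127 and 84.2 to 48.1, 67.6 and 49.7 (-0.81, adjusted p = 0.038). In all 3 the groups did not overlap, and replicate 2 was the highest in both groups of Slc39a10 and Slc12a7. With the replicate number as a block, 4 members were higher and 6 lower (background 2.47% and 3.56%): Slc22a4 joined the first, and Slc20a1, Slc4a11 and Slc9a3r1 the second. None of the 3 passed as lower when CM replicate 2, CM + Rux replicate 1 or CM + Rux replicate 3 was left out, and 5 members did without CM + Rux replicate 2. Slc16a10 stayed called whichever sample was left out, whereas Slc7a8 and Slc9b2 each missed the threshold in several of these fits.

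Without tumor-conditioned medium, ruxolitinib changed no member by edgeR's test. In DMEM + Rux against DMEM, 0 members were called in either direction, against 0% higher and 0.970% lower over all genes tested, and DESeq2 also called 0. The samples of 35 members (19.8%) did not overlap, against 18.5%. At an unadjusted p under 0.05 and the same fold, 2 were higher (Slc25a42 and Slc26a11) and 1 was lower (Slc26a9), against 0.404% and 1.99% over all genes. The smallest adjusted p of a member was 0.211, and log2 fold changes ran from -1.44 (Slc35g2) to 0.56 (Slc26a11). Whether ruxolitinib acted differently with CM than with DMEM was tested as an interaction, and 0 members were called, against 0.234% higher and 0.178% lower over all genes. At an unadjusted p 9 members passed in each direction, against 3.50% and 2.50%. The nearest was Slc16a10, with a difference of 1.73 ± 0.35 on the log2 scale and an adjusted p of 0.0502. DESeq2 called 2 members, Slc16a10 and Slc7a8, both with a more positive effect in CM, against 1.20% of all genes in that direction and 0.711% in the other. With the replicate number as a block, 5 members had a more positive effect in CM (Slc16a10, Slc25a10, Slc43a2, Slc4a7 and Slc7a8) and 5 a more negative one (Slc12a7, Slc33a1, Slc39a10, Slc39a8 and Slc9a3r1), 2.82% each way against 2% and 1.59% of all genes. Slc7a8 and Slc16a10 had the smallest adjusted p of these, 0.00063 and 0.0028. Of the groups in this test, CM and CM + Rux share 3 replicate numbers, and DMEM and DMEM + Rux share 2. With no filter on low counts 3 and 1 members were called, against 0.870% and 0.556% of genes.

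**Figure D3:**
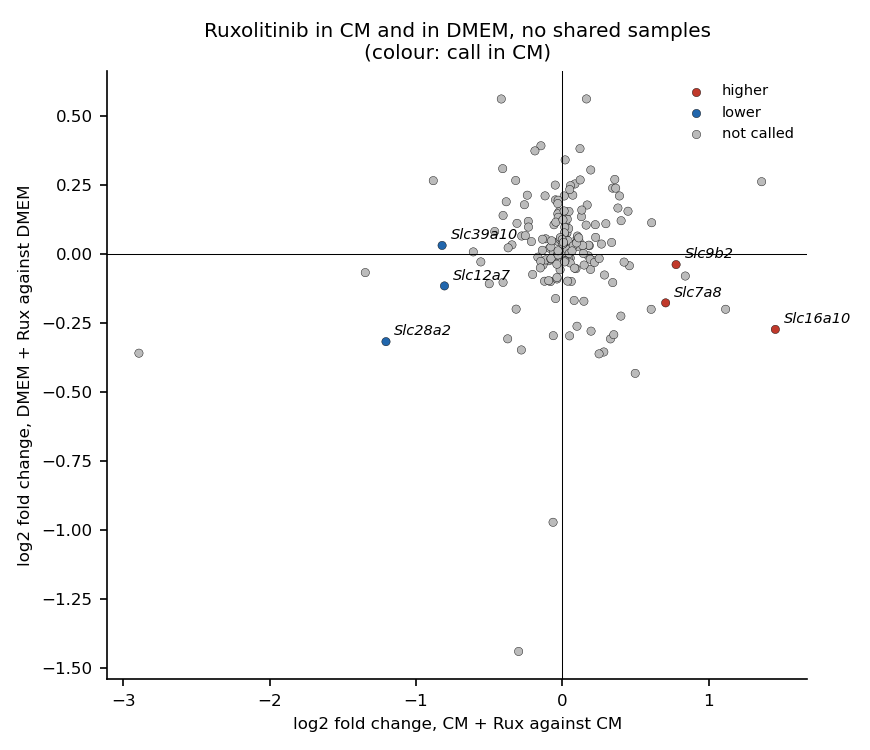
Log2 fold change of each of the 177 solute carrier genes with ruxolitinib in CM (x axis) and in DMEM (y axis), comparisons that share no samples, with the 6 genes called in CM named and coloured (red higher, blue lower). Slc16a10 lies at 1.46 in CM and -0.27 in DMEM.

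IKK-16 was compared on top of ruxolitinib and CM. In CM + Rux + IKK-16 against CM + Rux, 17 members rose and 2 fell (9.60% and 1.13%), where over all genes tested 4.07% were higher and 3.66% lower. The share higher was thus above this background and the share lower below it, with no test of either. The members' median log2 fold change was 0.037, against -0.0019 over all genes. Groups did not overlap for 57 members (32.2%), against a background of 31.5%. Members that rose came from 12 of the 16 classes: 3 of 18 amino acid carriers, 2 each of the sugar, vitamin and organic ion carriers, and 1 each of 8 classes, Slc8b1, a mitochondrial sodium-calcium exchanger, among them. None of the 21 metal and haem carriers was called by edgeR's test.

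Among the amino acid carriers, Slc43a2 was at 218, 225 and 243 CPM in CM + Rux and at 495, 411 and 502 with IKK-16 (log2 fold change 1.04 ± 0.10, adjusted p = 6.8e-05). These values with IKK-16 reached toward those in DMEM, 553 and 601. Slc6a8, the creatine importer, went from 200, 191 and 257 CPM to 358, 358 and 394 (log2 fold change 0.78, adjusted p = 0.0087). It had been at 135 and 134 CPM in DMEM, so that IKK-16 took it above every other group's mean. Slc7a4 rose from 2.02 ± 0.242 to 3.46 ± 0.0514 CPM (n = 3 each).

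Of all members called with IKK-16, Slc26a11, the sulfate and chloride carrier, had the largest change, from 6.17, 4.70 and 5.64 CPM to 14.8, 11.8 and 14.2 (log2 fold change 1.31 ± 0.20, adjusted p = 0.00091). Slc29a3, which moves nucleosides out of the lysosome, was at 69.1, 76.1 and 78.5 CPM in CM + Rux and at 127, 127 and 140 with IKK-16 (log2 fold change 0.82, adjusted p = 0.00075), and Slc17a5, which exports sialic acid from the lysosome, rose from 37.1 ± 1.75 to 57.1 ± 5.15 CPM (0.62, adjusted p = 0.0041). Slc37a2 went from 244, 332 and 227 CPM to 454, 548 and 398 (0.80, adjusted p = 0.013), without overlap, and its adjusted p was 0.053 without CM + Rux replicate 1 and 0.055 without replicate 3. Slc46a3, by contrast, remained at 0.618, 0.978 and 0.582 CPM with IKK-16 (log2 fold change -0.087).

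Plasma membrane carriers that rose included Slc22a4, from 17.1, 16.2 and 15.7 CPM to 38.5, 25.4 and 29.4 (log2 fold change 0.93, adjusted p = 0.0036), and Slc27a1, a fatty acid importer, from 156, 204 and 190 to 281, 359 and 287 (0.75, adjusted p = 0.0036). Slc22a4 was higher in CM than in DMEM too, and its levels in DMEM were 7.23 and 4.50 CPM. The vitamin carriers Slc5a6 (biotin and pantothenate) and Slc46a1 rose by 0.73 and 0.69 on the log2 scale. The members that fell were Slc9a3r1, from 185, 268 and 157 CPM to 80.6, 133 and 83.4 (log2 fold change -1.04, adjusted p = 0.0068), and Slc25a25, a calcium-regulated carrier of ATP-magnesium and phosphate, from 35.9 ± 4.08 to 23.7 ± 4.10 (-0.59, adjusted p = 0.0068).

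Both comparisons in which members moved with CM and with IKK-16 share no samples, so their lists could be set side by side. Of the 17 members higher with IKK-16, 10 (58.8%) were among the 50 lower in CM than in DMEM, which is 20% of the latter: Slc16a7, Slc17a5, Slc26a11, Slc35c2, Slc37a2, Slc43a2, Slc45a4, Slc46a1, Slc5a6 and Slc7a4. Over all genes tested, 374 of 504 genes higher with IKK-16 (74.2%) were among the 2980 lower in CM (12.6%). Slc22a4 was higher in both, and Slc9a3r1 was higher in CM and lower with IKK-16.

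**Figure D4:**
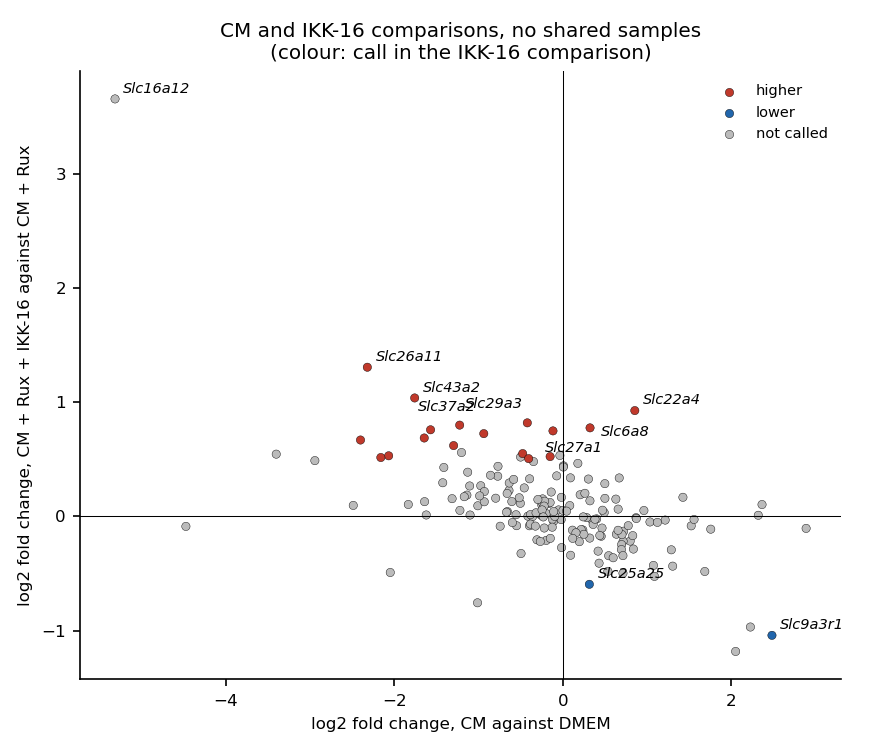
Log2 fold change of each of the 177 solute carrier genes in CM against DMEM (x axis) and in CM + Rux + IKK-16 against CM + Rux (y axis), coloured by the call in the second comparison (red higher, blue lower, grey neither). Of the 17 red points, 10 are genes called lower in CM; Slc16a12, at the upper left, had 0 counts in all CM + Rux samples and was not called.

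Samples labelled 2 h were set against CM + Rux, with the reservation that the meaning of the label is not given, that the group holds 2 samples, and that markers differed in them. Besides Zbtb46, given above, the macrophage marker Mertk was higher at 2 h (log2 fold change 1.25) and S100a8 was lower, at 0.359 to 0.992 CPM against 1.40 to 1.48 in CM + Rux. The part of these markers in the differences was not tested. In CM + Rux 2 h, 28 members were higher and 23 lower than in CM + Rux (15.8% and 13.0%), against 12.6% and 10.7% over all genes tested. The medians were 0.0047 and -0.027 on the log2 scale. Groups did not overlap for 113 members (63.8%), against 59.6%. Among the called members, 7 had one group that never exceeded 1 CPM.

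Sugar carriers left in the set were mostly higher at 2 h, with 6 of 10 called higher and none lower (median 0.81). Over all genes tested, 12.6% were called higher and 10.7% lower. Slc5a3 was at 39.5 and 56.9 CPM at 2 h and at 18.6, 12.7 and 13.9 in CM + Rux (log2 fold change 1.67, adjusted p = 0.0057, and 0.058 without 2 h replicate 3), and Slc37a2 was at 547 and 446 CPM against 244, 332 and 227 (0.89, adjusted p = 0.0045). For both, the samples did not overlap. Of the lipid and acetyl-CoA carriers, 3 of 8 were lower and none higher. These small classes were not tested as sets. Slc33a1, which brings acetyl-CoA into the endoplasmic reticulum, was at 27.5 ± 2.90 CPM (n = 2) against 47.8 ± 6.09 (n = 3), and Slc27a4 at 87.6 ± 7.11 against 152 ± 17.2. Slc27a3 had the largest fall of the class (log2 fold change -1.66), at 0.166 and 0.525 CPM against 0.701, 1.19 and 0.966, with an adjusted p of 0.17 without 2 h replicate 2.

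**Figure D5:**
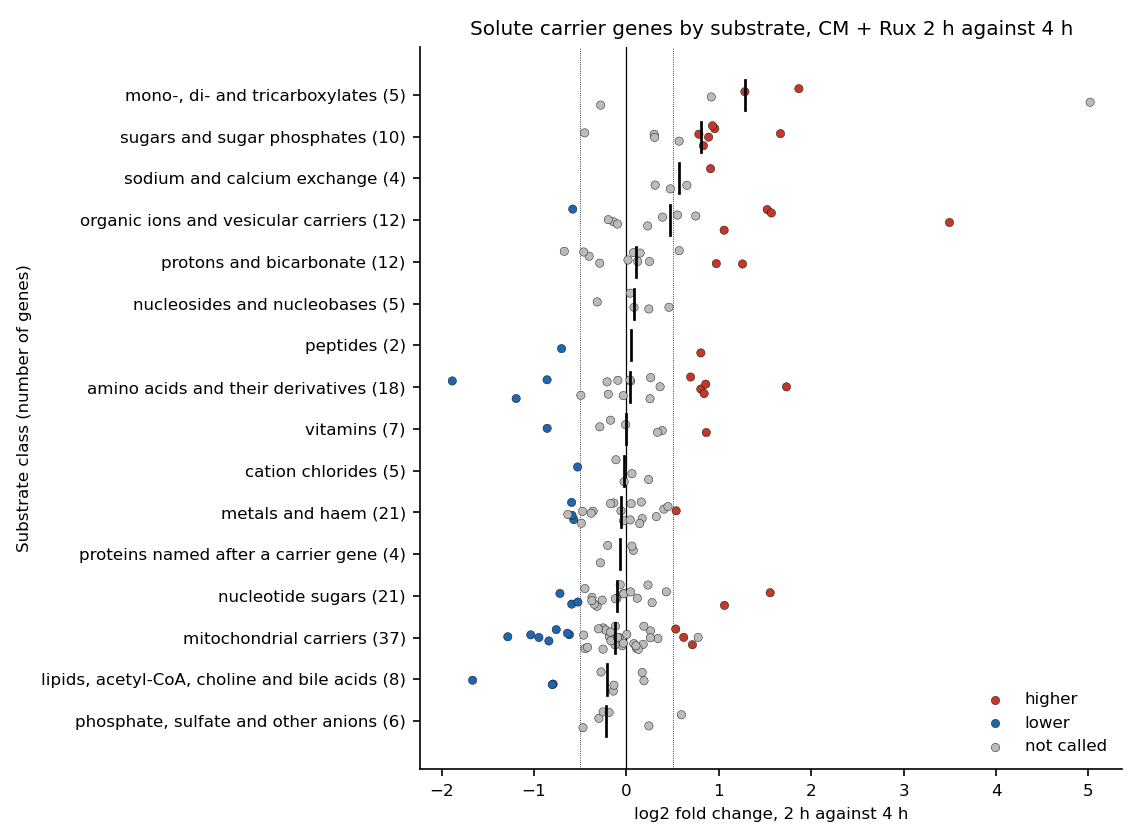
Log2 fold change in CM + Rux 2 h against CM + Rux 4 h (x axis) of each of the 177 solute carrier genes, by substrate class (y axis, number of genes in parentheses), with the class median as a black bar, genes called higher in red, lower in blue and neither in grey, and dotted lines at a log2 fold change of 0.5 in both directions. Of the sugar carriers 6 are called higher and 0 lower, and of the lipid carriers 0 higher and 3 lower. Over all genes tested, 12.6% are called higher and 10.7% lower. Slc16a12, the point farthest right, was not called.

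The largest difference of a called member at 2 h was that of Slc46a3, at 8.00 and 9.46 CPM against 0.593, 0.992 and 0.661 in CM + Rux (log2 fold change 3.50 ± 0.35, adjusted p = 8.3e-06). Its 2 h samples lay below those in DMEM and above all others in CM. Slc16a7 followed, at 38.4 and 44.7 CPM against 10, 13.4 and 10.5 (1.87, adjusted p = 2.3e-06), then Slc7a4 (1.73), Slc5a3 (1.67, given above), Slc22a15 (1.57), Slc35c2 (1.56), the vesicular amine carrier Slc18a1 (1.52) and the dicarboxylate carrier Slc13a2 (1.28). Slc18a1 and Slc13a2 were low, at 1.11 ± 0.257 and 0.857 ± 0.275 CPM (n = 2), and each missed the threshold when 1 sample at 2 h was left out. Slc6a6 was at 1632 and 1498 CPM at 2 h against 825, 946 and 818 (0.86), within its range in DMEM.

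Members lower at 2 h included Slc15a3, given above (log2 fold change -0.70, adjusted p = 0.00086), and Slc31a1, at 262 and 302 CPM against 440, 383 and 453 (-0.59). Of 37 mitochondrial carriers, 7 were lower and 3 higher, against 10.7% and 12.6% of all genes tested. Slc25a47 (-1.28), Slc25a14 (-1.03) and the coenzyme A carrier Slc25a42 (-0.95) led those lower. Slc1a2 was lower by the largest amount (-1.88), from 2.29 ± 0.890 CPM (n = 3) to 0.643 ± 0.246 (n = 2). Its adjusted p without 2 h replicate 2 was 0.17. The osmolyte and GABA carriers Slc6a13 and Slc6a12 (-1.19 and -0.86) and the thiamine importer Slc19a2 (-0.86) completed the list of the 8 largest. Without 2 h replicate 3, Slc25a42, Slc6a13 and Slc6a12 had adjusted p of 0.17, 0.073 and 0.15.

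Against CM without ruxolitinib, the 2 h samples had 33 members higher and 26 lower (18.6% and 14.7%, background 14.6% and 13.3%), and 124 whose samples did not overlap (70.1%, background 63.3%). This comparison shares the 2 h samples with the previous one. Its largest changes were Slc46a3 (log2 fold change 3.55), Slc5a3 (2.02), Slc25a27 (1.89), Slc16a7 (1.89), Slc16a10 (1.82), Slc35c2 (1.53), Slc7a4 (1.41) and Slc37a2 (1.34) among those higher, and Slc4a11 (-2.02), Slc27a3 (-1.69), Slc25a47 (-1.66), Slc6a13 (-1.51), Slc1a2 (-1.50), Slc25a42 (-1.36), Slc33a1 (-1.19) and Slc39a10 (-0.99) among those lower. Slc25a27, Slc4a11, Slc27a3, Slc1a2 and Slc39a10 each missed the threshold when 1 of the 2 h samples was left out. Slc16a10 at 2 h, 181 and 174 CPM, lay near the lower of the samples in DMEM, 180 CPM.

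By substrate over all 6 groups, summed levels of a class are described here without a test. The sums hold only the members, without the carriers left out by name, those of glucose and lactate among them. Peptide carriers were lowest in DMEM + Rux (419 ± 27.0 CPM, n = 3) and highest in CM (2580 ± 199, n = 3), with 2 h between (1568 ± 120, n = 2), and 95.2% of the sum was Slc15a3. Metal and haem carriers stood at 1440 ± 31.2 CPM in DMEM and 1423 ± 67.1 in DMEM + Rux, and at 1917 to 2085 on average in the 4 groups with CM, whose neighbours overlapped in part. Sugar carriers were at 779 ± 175 CPM in DMEM and 826 ± 102 in DMEM + Rux, at 324 ± 46.4 in CM, 390 ± 62.8 in CM + Rux, 618 ± 80.6 with IKK-16 and 695 ± 71.5 at 2 h, 66.0% of the class being Slc37a2. Amino acid carriers were also lowest in CM (2260 ± 153 CPM) and CM + Rux (2596 ± 114), but their highest mean was at 2 h (3573 ± 4.19). They were at 3496 ± 381 CPM in DMEM, 3494 ± 253 in DMEM + Rux and 3226 ± 85.9 with IKK-16. No sample of CM or CM + Rux reached the lowest of the other groups, and 41.2% of the class was Slc6a6. The Slc35 family, classed as nucleotide sugar carriers, differed least, from 1008 ± 56.8 CPM in DMEM to 1173 ± 22.4 at 2 h.

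Transporters of the superfamily that carry other names, and partner proteins, were taken as a further list of 37 genes, of which 31 were tested. In CM against DMEM 6 were higher and 9 lower (19.4% and 29.0%, against 20.9% and 24.1% of all genes). Slco3a1, an organic anion transporter, was at 2.34 ± 0.0484 CPM in DMEM and 15.3 ± 1.37 in CM (log2 fold change 2.70, adjusted p = 6.7e-08), and the choline carrier Flvcr2 rose by 2.30. Slco2b1 went from 10.3 ± 5.68 CPM to 0.420 ± 0.130 (-4.60, adjusted p = 1.2e-06), and Slco4a1 and Nipal3 fell by 2.27 and 1.95. With IKK-16 4 were higher (Mfsd12, Flvcr1, the lysosomal cystine exporter Ctns and Nipal3) and none lower by edgeR's test (12.9% and 0%, against 4.07% and 3.66%), Mfsd12 going from 163 ± 38.4 CPM in CM + Rux to 355 ± 56.8. Ruxolitinib lowered 1 in CM (Emb, a partner of monocarboxylate transporters, by 0.56) and 1 in DMEM (Slco3a1, by 0.96), 3.23% each against 2.13% and 0.970% of all genes. At 2 h against CM + Rux 6 were higher and 3 lower (19.4% and 9.68%, against 12.6% and 10.7%), and against CM 5 and 3 (16.1% and 9.68%, against 14.6% and 13.3%).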

How the data were processed

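The deposited table held whole-number gene counts, made by the authors with Trimmomatic 0.33, HISAT2 2.1.0 (GRCm38) and featureCounts 1.6.2 with Ensembl release 100, on paired, reverse-stranded fragments of mapping quality 10 or above. Gene symbols came from GENCODE at Ensembl release 96 (55141 of 55487 genes; the other 346 held no more than 0.0459% of any sample's counts). Genes above 1 CPM in at least 2 of the 16 samples were fitted in edgeR 4.0.16 (R 4.3.3; glmQLFit, glmQLFTest, RLE scaling, 6 groups, no covariate), with Benjamini-Hochberg adjustment over 12372 genes and calls at an adjusted p under 0.05 and a log2 fold change beyond 0.5. CPM in the text used the scaled library sizes, values are mean ± SD, and errors of fold changes are SE. All samples were used. The fit was also run on simulated counts in which a small share of genes changed, as many up as down. In CM against DMEM far more genes were called, so that run does not test the scaling there.

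Depth (18449388 to 46215853 counts) limits members of about 1 CPM or less most. The exons of 11 members overlapped another gene on the same strand, of which Slc5a3 (Mrps6, 5489 counts over all samples) and Slc10a3 (Ubl4a, 14479) had a partner with over 80 counts. Same-numbered samples deviated together in CM + Rux and CM (r = 0.433, 0.621 and 0.477). They also did in CM + Rux + IKK-16 and CM + Rux (0.503, 0.631 and 0.508). The main fit has no term for the number, so its calls and p-values ignore any such pairing. Only the alternative fit with the replicate block uses it, and its calls are named as such. This pairing comes from the data, since the labels do not say what a number stands for. Named in CM against DMEM were the up to 2 called members of each class with the largest change each way, in other comparisons the 8 largest each way, and for level the highest per kilobase in each class; further members were named after their values were seen, as parts of a class or of the list shared by the comparisons. Substrate classes follow the carrier families. Members and lists, the markers included, were chosen with earlier results of these data known, and the class of proteins named after a carrier after the table was read. Promoter windows were RefSeq GRCm38.p6. Alternatives were TMM scaling, total counts, DESeq2 1.42.0, no filter, only the groups compared, no fold threshold, other p thresholds, the replicate block and each sample left out.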

Additional observations from a re-analysis of the deposited data

How the results depend on the processing

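Percentages in parentheses are the shares of all genes tested that were called under the same setting. With total counts and no scaling, CM against DMEM gave 23 members higher (12.4%) and 76 lower (37.2%) in place of 40 and 50, by construction of the scaling. For CM + Rux against CM, 6 were higher with no fold threshold (1.82%) and 6 at an unadjusted p (2.97%), and 5 were lower with no filter (1.70%), 1 with only the groups compared (1.76%), 6 with the replicate block (3.56%) and 5 at an unadjusted p (3.86%). For IKK-16, 10 were lower with no fold threshold (7.65%) and 4 at an unadjusted p (5.07%). For ruxolitinib in DMEM, 2 were higher (0.404%) and 1 lower (1.99%) at an unadjusted p. Members lower at 2 h with no fold threshold were 46 against CM (23.0%) and 39 against CM + Rux (20%). For the difference of the ruxolitinib effects, 2 were higher with DESeq2 (1.20%), 1 at an adjusted p under 0.1 (0.711%), 3 with no filter (0.870%), 5 with the replicate block (2%) and 9 at an unadjusted p (3.50%), and 1 was lower with no filter (0.556%), 5 with the block (1.59%) and 9 at an unadjusted p (2.50%). The cause was not tested for these.

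Leaving out each sample in turn gave 37 to 45 higher and 44 to 53 lower for CM against DMEM, 1 to 2 and 0 to 5 for CM + Rux against CM, 12 to 17 and 2 to 4 for IKK-16, 0 to 1 and 0 to 1 for ruxolitinib in DMEM, 27 to 31 and 20 to 28 for 2 h against CM, 21 to 28 and 16 to 24 for 2 h against CM + Rux, and 0 to 1 and 0 to 0 for the difference of the effects. The 1 member called in DMEM in each direction came without DMEM replicate 2, and 4 were lower with IKK-16 without CM + Rux replicate 2 or 3 or IKK-16 replicate 2. Where 1 sample was left in a group, it was assumed to vary like the other groups. For the named members, each alternative was counted once per member. In CM against DMEM the direction and the side of the threshold were kept 900 times, and the threshold was lost 16 and gained 10 times. It was kept 76 and lost 20 times for CM + Rux against CM, and 158 and 2 times for IKK-16. For 2 h it was kept 229 and lost 9 times against CM, and 223 and 14 times against CM + Rux. The tally includes the looser cut-offs on the main fit (no fold threshold, adjusted p under 0.1, unadjusted p under 0.05). Under these a called member could not lose its call, so they do not bear on stability. No named member reversed. The block moved no other count of calls by over 1.5 times; where only 2 numbers were shared, it rests on numbers alone.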
